A study of Mus musculus with 8 samples.

Results

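The mouse (mmu) miRBase entries mmu-miR-5109, mmu-miR-6243, mmu-miR-6240, mmu-miR-5115 and mmu-miR-1983 were followed through 8 small RNA libraries of mouse osteoblast cells and skull bone, as entries that may be fragments of ribosomal RNA (rRNA) or transfer RNA (tRNA) rather than microRNAs. They were selected by name from the deposited table, with their levels in all 8 libraries already known, and are 5 of its 1418 entries. The prefix mmu is left out below. Levels, spreads and differences of the 5 are therefore given as a description and carry no test. MC3T3 E1 sc4 is a subclone of a pre-osteoblast line derived from mouse calvaria, used here at passage 10 to 15 and labelled as C57BL/6. The line was sampled undifferentiated at day 0 and at days 6, 10, 17 and 24 of osteogenic culture with 50 µg/ml ascorbic acid and 4 mM β-glycerol phosphate. Each day is 1 library made from the pooled RNA of 3 cultures, so no day has a replicate. The other 3 libraries came from calvaria (parietal and frontal bones) of female C57/B6 mice aged 2 to 3 days, all of which carried the Prrx1-Cre transgene. Prrx1-Cre is active in limb and skull mesenchyme. The bones had been digested for 20 minutes with collagenase and trypsin before RNA was taken. Whether each of these 3 libraries is 1 animal is not stated, so their spread may be technical. In tests of calvaria against MC3T3 cells the 5 days were taken as replicates of 1 group, whose spread includes changes over the days. The p-values thus measure only the spread between these samples.

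A microRNA is cut from a hairpin precursor by Drosha and Dicer and loaded into an Argonaute protein, where bases 2 to 8 of the mature strand, the seed, select its targets. Ribosomal and transfer RNA are far more abundant than microRNAs in every cell, and pieces of them fall in the same size range and enter small RNA libraries. When such a piece has been registered as a microRNA, its reads are counted under that name and enter the total by which all other microRNAs are scaled. A tRNA gene is transcribed with a short trailer after its last base, and the trailer is cut off by RNase Z before the CCA end is added.

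The sequences are shown first because they bear on what is being counted. RefSeq (build GRCm38.p6, which mm10 also names) held 2 of the 5 members and 1029 of the 1281 mature names of the deposited table. The 2 mature sequences, 5′ to 3′ with the seed in capitals, were:
miR-6240: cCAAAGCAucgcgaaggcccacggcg
miR-1983: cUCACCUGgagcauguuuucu
The 2 seeds differ. miR-330-3p has the seed of miR-6240 and miR-412-3p that of miR-1983, and no other RefSeq mature sequence has either. miR-6240 lies at chr5:114851973-114851998 on the plus strand, in a hairpin at chr5:114851948-114852064 that overlaps no other RefSeq gene. The nearest, the protein-coding 4930519G04Rik, lies 1582 bases from the hairpin. At 26 bases miR-6240 is among 7 of 1029 mature sequences of that length or more (0.68%), against a median of 22. Its GC content is 69.2%, and 95.3% of the 1029 have a lower one. miR-1983 has 21 bases and a GC content of 47.6%, near the median of 50%.

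The locus of miR-1983 is also that of a tRNA gene. Mature miR-1983 lies at chr13:21896930-21896950 on the minus strand, and its hairpin at chr13:21896918-21897049. RefSeq places n-TItat14, by its symbol an isoleucine tRNA gene with the anticodon TAT, at chr13:21896938-21897031, wholly inside the hairpin. The RefSeq table used gives no strand for it, and it is read here on the strand of the hairpin. The 94 bases of the tRNA gene are 71.2% of the 132 bases of the hairpin. In the hairpin below, capitals mark the tRNA gene, and in the mature sequence they mark the bases that lie in that gene:
Mir1983 hairpin: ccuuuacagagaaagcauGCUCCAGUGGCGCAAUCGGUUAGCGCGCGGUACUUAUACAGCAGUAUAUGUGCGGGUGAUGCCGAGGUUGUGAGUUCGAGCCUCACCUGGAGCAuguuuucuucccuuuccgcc
mature miR-1983: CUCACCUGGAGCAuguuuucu
The first 13 bases of miR-1983 are the last 13 of the tRNA gene, and its other 8 bases lie past the end of the gene. On that strand the gene opens with 7 bases, gcuccag, that are complementary to the 7 bases before its last one, the arrangement of the acceptor stem of a tRNA. miR-1983 was the only one of 1029 mature names with RefSeq coordinates to overlap any of 430 tRNA genes (0.0972%). None of the 1029 overlapped any of 65 rRNA genes, and 5 overlapped a small nucleolar RNA gene (0.486%): both arms of miR-664, both arms of miR-3084, and miR-5121.

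**Figure D1:**
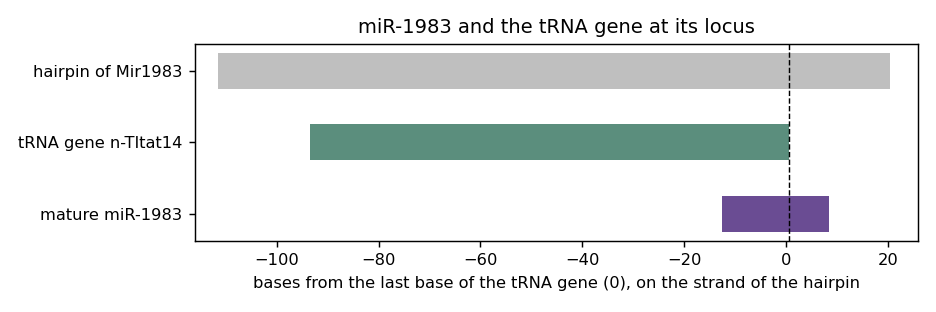
Positions of the Mir1983 hairpin, the tRNA gene n-TItat14 and mature miR-1983, in bases from the last base of the tRNA gene (dashed line), on the strand of the hairpin. The mature sequence covers 13 bases on the side of the tRNA gene and 8 bases past it.

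For miR-6240 no such overlap was found. Its mature sequence shared no run of 16 bases with any of 141767 GENCODE M21 transcripts other than its own, on either strand. Its whole hairpin did share such runs, with 68 other genes on the same strand and 115 on the opposite one. The nearest gene, 4930519G04Rik, was among those on the opposite strand. Against the 378 GENCODE transcripts of ribosomal and mitochondrial transfer RNA, the best placement had 9 mismatches on the same strand and 10 on the opposite one. The same search gave miR-1983 no fewer than 7 mismatches on either strand. This set holds no nuclear tRNA. Over all 1029 names, 1 (miR-669n) matched this set with up to 2 mismatches. The longest rRNA transcript of the set has 1849 bases, so the search does not cover the whole ribosomal repeat, and the resemblance of miR-6240 to rRNA was not tested beyond it. By position, miR-1983 thus shares 13 bases with a tRNA gene, while its other 8 lie past the gene. Pairing within the Mir1983 hairpin was examined only for the 7 bases that open the tRNA gene. Whether miR-1983 is a tRNA piece or is cut from that hairpin was not tested. For miR-5109, miR-6243 and miR-5115, which are given by name and level only, a resemblance to either RNA was not tested.

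All 5 names have 1 entry each, and all of their 39 nonzero counts were whole numbers (within 0.005). Among other names with 1 entry 82.3% of 4603 nonzero values were whole, and among names with several entries 17% of 1397. Fractional counts, which arise where a read is divided between entries, were thus absent from the 5.

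Libraries held 2742368 to 4031962 counts in MC3T3 cells and 1183011 to 2023036 in calvaria, and 351 to 385 and 391 to 441 mature names had at least 10 counts. Levels are given as RPM, the count scaled to a common library total. Single libraries carry exact 95% Poisson intervals, and ratios of counts exact binomial ones. Both cover counting error only, because PCR copies of a molecule cannot be recognised in these libraries. The day 0 library stands apart, with 45.5% of its counts from miR-21a-5p against 11.2% to 20.1% on later days, which lowers all other RPM of day 0. Values scaled by TMM (trimmed mean of M-values, factor 0.694 at day 0) are therefore given beside the steps from day 0. Fewer cells of a type and less RNA per cell cannot be told apart in such bulk samples. Of the 4 cartilage markers all were higher in each calvaria library than on any MC3T3 day. The 5 osteoblast and mesenchyme markers found (miR-199a-3p, miR-199a-5p, miR-214-3p, miR-143-3p and miR-145a-5p) summed to 131924 to 145904 RPM in calvaria and 130003 to 187906 in MC3T3 cells. These sums join markers that went opposite ways. Only miR-199a-3p was higher in each calvaria library than on any day (49959 to 55986 RPM against 19984 to 41864). miR-143-3p (50332 to 64103 against 87473 to 117479) and miR-145a-5p were lower in each, and miR-199a-5p and miR-214-3p overlapped.

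miR-6243 was the most abundant of the 5 in every library. In calvaria it stood at 21101, 24826 and 19928 RPM, which made it 14th of all entries by mean level, and in MC3T3 cells at 139.6 RPM at day 0, 593.2 at day 6, 795.6 at day 10, 617.5 at day 17 and 767.2 at day 24. The 3 calvaria libraries lay close together and far above all MC3T3 days, and day 0 was the lowest of the days. Calvaria averaged 21952 ± 2558 RPM (SD, n = 3) and the MC3T3 days 582.6 ± 263.2 RPM (SD over the 5 days), a ratio of 37.7. Day 24 exceeded day 0 by 5.49 (95% interval 5 to 6.04) in RPM. With TMM scaling miR-6243 was at 201.1 at day 0 and 490.1 to 804.8 on later days, so day 0 stayed the lowest.

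miR-5109 followed with 17501, 15171 and 13515 RPM in calvaria, the 18th entry by mean level. In MC3T3 cells it had 55.8 RPM at day 0 (48.8 to 63.6), then 157.2, 142.4, 152.8 and 137.5 at days 6, 10, 17 and 24. After day 0 its level was flat within 137.5 to 157.2 RPM, and calvaria and MC3T3 values did not overlap. The means were 15396 ± 2003 and 129.1 ± 41.7 RPM, a ratio of 119, the highest of the 5. Its day 6 level exceeded that of day 0 by 2.82 (2.4 to 3.31) in RPM. With TMM scaling miR-5109 was at 80.4 at day 0 and 129.9 at day 6.

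miR-6240, the 26-base sequence shown above, was scarcer by far. It had 260.4 RPM in calvaria 1 (232.1 to 291.1), 264 in calvaria 2 (242 to 287.3) and 530.8 in calvaria 3 (492.5 to 571.2). On the MC3T3 days it had 5, 16, 12, 25 and 19 counts, or 1.24, 5.07, 3.87, 6.34 and 6.93 RPM. Calvaria 3 stood apart from calvaria 1 and 2, whose intervals overlap, and no MC3T3 day came near any of them. The means were 351.7 ± 155.1 and 4.69 ± 2.26 RPM, a ratio of 75.

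miR-5115 had 111.6 RPM in calvaria 1 (93.4 to 132.3), 152.2 in calvaria 2 (135.7 to 170.2) and 291.1 in calvaria 3 (262.9 to 321.4). In MC3T3 cells it had 0 counts at day 0, which allows up to 0.744 RPM if the limit is set at 3 counts and 0.915 RPM by the exact interval, and 4.44, 2.9, 7.11 and 2.92 RPM at days 6, 10, 17 and 24. The order of the 3 calvaria libraries was that of miR-6240, with calvaria 3 highest. The means were 185 ± 94.1 and 3.47 ± 2.59 RPM, a ratio of 53.3.

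miR-1983, the sequence that spans the end of the tRNA gene, was the scarcest in calvaria and took another course in culture. It had 68.5, 61.3 and 49.1 RPM in calvaria, with overlapping intervals (54.4 to 85.1, 51 to 73.1 and 38 to 62.5). On the MC3T3 days it had 28, 17, 3, 4 and 1 counts, or 6.94, 5.39, 0.966, 1.02 and 0.365 RPM. Day 0 was here the highest of the days, also with TMM scaling (10 against 0.382 to 4.45), where for the other 4 members it was the lowest. Day 0 stood 19 times (3.15 to 779) above day 24, an interval set by the single count at day 24. The means were 59.6 ± 9.78 RPM in calvaria and 2.94 ± 3.01 in MC3T3 cells, a ratio of 20.3, the lowest of the 5.

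**Figure D2:**
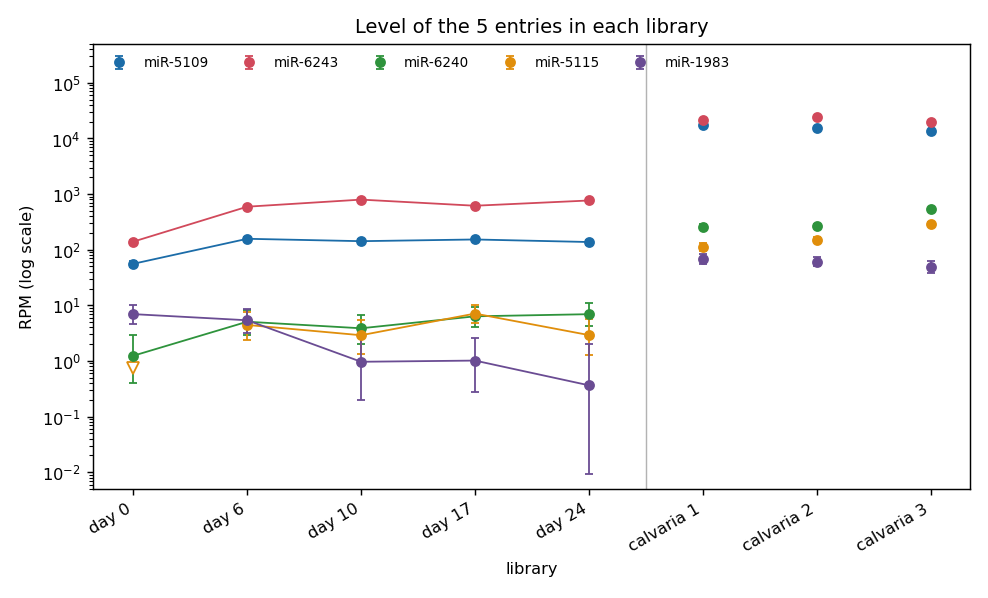
RPM (log scale) of the 5 entries in the 5 MC3T3 libraries (joined by lines) and the 3 calvaria libraries, with exact 95% Poisson intervals of the count. The open triangle is the 3-count limit of 0.744 RPM for the 0 counts of miR-5115 at day 0. Every calvaria value lies above every MC3T3 value of the same entry, and miR-1983 alone is highest at day 0 among the days.

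In each of the 5, the lowest calvaria library exceeded the highest MC3T3 day, by 86 for miR-5109, 37.6 for miR-6240, 25 for miR-6243, 15.7 for miR-5115 and 7.07 for miR-1983. Of 551 entries with 10 counts in at least 3 libraries, 193 (35.0%) had all calvaria libraries above all MC3T3 days. Since the 5 were chosen with these levels known, nothing is read from their count. By the ratio of means they were not the most extreme: among 515 such entries with MC3T3 counts, 48 had a larger ratio than miR-5109 and 61 a larger one than miR-1983. On the scale of log2(RPM + 1), calvaria exceeded MC3T3 cells by 6.97 for miR-5109, 6 for miR-6240, 5.54 for miR-5115, 5.45 for miR-6243 and 4.29 for miR-1983. The differences of the 3 scarce members depend on the added 1 RPM. With 10 RPM added they were 4.56 for miR-6240, 3.77 for miR-5115 and 2.45 for miR-1983.

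**Figure D3:**
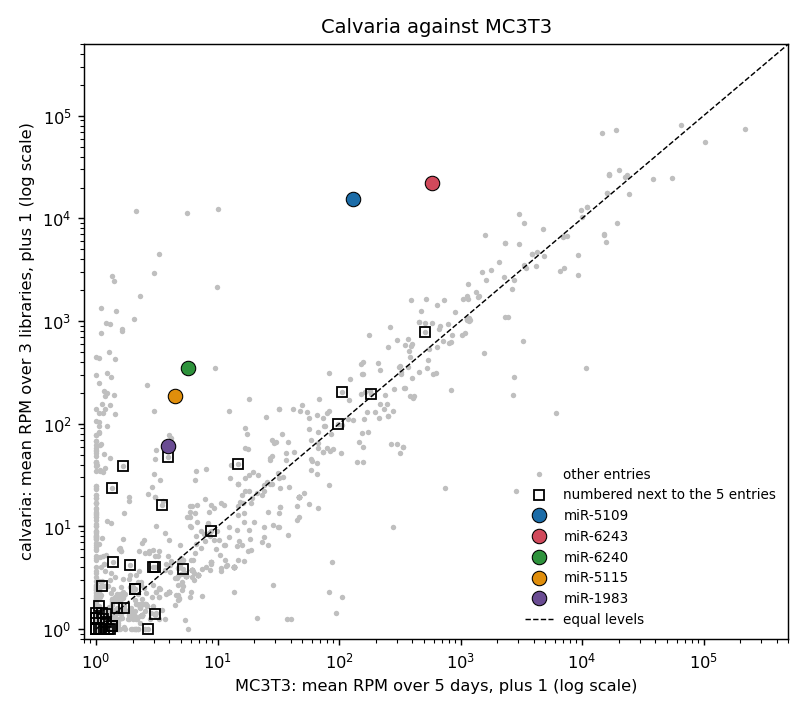
Mean RPM plus 1 over the 3 calvaria libraries against that over the 5 MC3T3 days, both on log scales, for all entries. The 5 members (large points) lie above the line of equal levels by ratios of 20.3 to 119, and open squares mark the 54 entries numbered next to them.

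The 5 did not keep fixed proportions to each other. The count of miR-5109 over that of miR-6243 was 0.829 (0.814 to 0.845), 0.611 (0.602 to 0.62) and 0.678 (0.666 to 0.691) in calvaria 1, 2 and 3. It was lower in culture, at 0.4 (0.341 to 0.467) at day 0, 0.265 and 0.247 at days 6 and 17, and 0.179 at days 10 and 24. The intervals separate all 3 calvaria libraries from all days and from each other. miR-5115 over miR-6240 was 0.429 (0.347 to 0.527), 0.577 (0.5 to 0.665) and 0.548 (0.484 to 0.621) in calvaria, where all 3 intervals overlap. Overlapping intervals do not show equal proportions, and equality was not tested. In MC3T3 cells the ratio of this pair ran from 0 (0 to 1.09) at day 0 to 1.12 (0.63 to 2) at day 17. miR-6240 over miR-5109 was 0.0149, 0.0174 and 0.0393 in calvaria, with only the third (0.0364 to 0.0423) apart from the others.

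Spread over the calvaria libraries divided the 5 into a narrow and a wide group. The SD of log2(RPM + 1) was 0.16 for miR-6243, 0.19 for miR-5109 and 0.24 for miR-1983, against 0.59 for miR-6240 and 0.70 for miR-5115. The median over the 395 other entries with a mean of at least 10 RPM in calvaria was 0.25. Of these entries 31.1% had a smaller SD than miR-6243, 37% than miR-5109, 47.3% than miR-1983, 89.4% than miR-6240 and 94.2% than miR-5115. Among 122 entries of 100 to 1000 RPM alone, with a median of 0.24, the shares were 91.8% for miR-6240 and 95.1% for miR-5115. Among 24 entries of 10000 to 100000 RPM, with a median of 0.16, they were 54.2% for miR-6243 and 58.3% for miR-5109.

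The wide pair was high in one library. Calvaria 3 exceeded calvaria 1 by 2.04 (1.78 to 2.34) for miR-6240 and by 2.61 (2.14 to 3.2) for miR-5115, whereas calvaria 1 exceeded calvaria 3 by 1.29 (1.27 to 1.32) for miR-5109. For miR-1983 the ratio of calvaria 1 to calvaria 3 was 1.39 (0.994 to 1.96), so no difference was detectable at this depth. Markers of other cell types also differed in calvaria 3. The 2 endothelial miR-126 arms summed to 9028, 10749 and 20323 RPM in calvaria 1, 2 and 3, against 6.2 to 19 RPM in MC3T3 cells. The 8 blood cell markers in the table summed to 311.9, 368.5 and 463.8 RPM, against 38.9 to 110.6, with miR-144-5p at 0 on all MC3T3 days and 7 of the 8 higher in each calvaria library than on any day. The exception, miR-486-5p, made up most of the MC3T3 sum, at 36.5 to 107.1 RPM there and 47.8 to 59.6 in calvaria. miR-451a had 85.4, 116.4 and 170.5 RPM in calvaria 1, 2 and 3, while miR-223-3p, miR-142-5p and miR-150-5p were not highest in calvaria 3. The 4 cartilage markers went the other way, with 111611, 110887 and 61235 RPM. The 6 striated muscle markers summed to 367.7, 283.2 and 642.4 RPM, also highest in calvaria 3, against 212.6 to 574.4 in MC3T3 cells. Of these 6, 3 were higher in each calvaria library than on any day, and miR-208b-3p was at 0 in all 8 libraries. miR-206-3p alone had 556.3 RPM at day 0, and miR-499-5p was at 2.23 to 3.38 RPM in calvaria against 0.992 to 19.8. The 5 epithelial markers summed to 26.2, 16.8 and 22.3 RPM, against 2.23 to 5.47, with 2 of the 5 higher in each calvaria library than on any day. The part of these cell types in the levels of miR-6240 and miR-5115 was not tested.

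**Figure D4:**
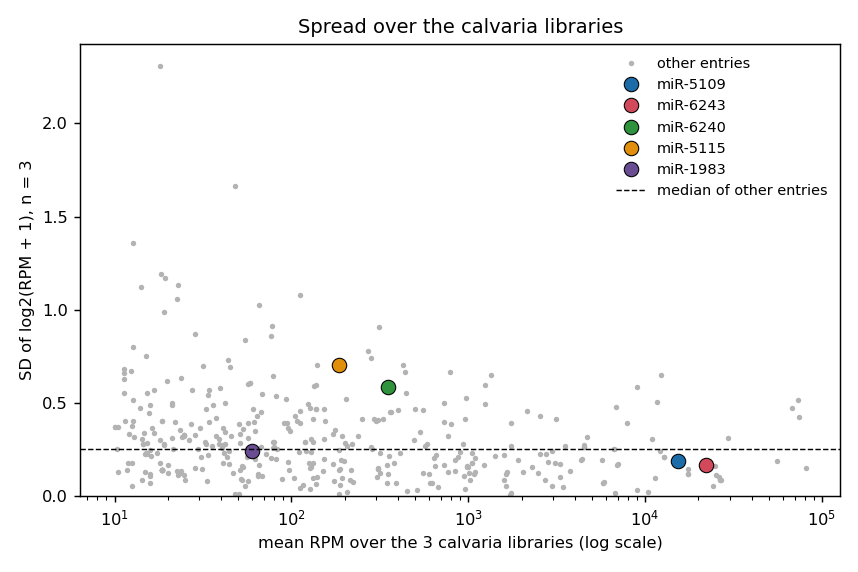
SD of log2(RPM + 1) over the 3 calvaria libraries against the mean RPM (log scale), for entries with a mean of at least 10 RPM. miR-6240 (0.59) and miR-5115 (0.70) lie above the median of the other entries (dashed, 0.25), and the other 3 members lie between 0.16 and 0.24.

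The entries whose course over the 8 libraries was nearest to that of a member were found by the root mean square difference of centred log2(RPM + 1), among 539 entries. miR-329-3p (0.42) and miR-329-5p (0.44) were nearest to miR-5109, where the median entry was at 3.38. miR-380-3p (0.74) and miR-1193-3p (0.75) were nearest to miR-6243, and miR-380-5p (0.60) and miR-598-3p (0.61) to miR-6240. miR-340-3p (0.85) and miR-598-3p (0.89) were nearest to miR-5115, and miR-181c-3p (0.71) and miR-377-3p (0.80) to miR-1983. Apart from miR-181c-3p, which had 72 ± 10.8 RPM in calvaria and 2.03 to 3.97 in MC3T3 cells, these had at most 0.365 RPM on any MC3T3 day. The measure thus matched members that were detected in culture with entries at or near 0 there. Of the members themselves, miR-6240 and miR-5115 were nearest to each other (0.47), and miR-1983 was at 1.54 or more from each of the other 4.

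Entries numbered next to the members in miRBase (miR-1981, miR-1982, miR-5097 to miR-5136 and miR-6236 to miR-6244) were not in the rule. This list was chosen with earlier results of these data known, so its counts of calls are not an independent test. Of its 54 entries 16 had no count in any library and 11 had 10 counts in at least 3 libraries. In the edgeR quasi-likelihood test of calvaria against MC3T3 cells, 6 of the 11 were higher at an adjusted p under 0.05 and 0 lower. At an unadjusted p under 0.05 these counts were also 6 and 0, as they were with DESeq2. The same test called 180 of all 551 entries higher (32.7%) and 186 lower (33.8%). At the median the 11 differed by 0.82 on the log2 scale, beside -0.13 over all entries. Of the 11, miR-5105 and miR-5126 had fewer than 10 counts on every MC3T3 day, so calvaria alone brought them through the count filter and fixed their direction. Without them 4 of 9 were higher and 0 lower, with a median of 0.45. With the same requirement of 10 counts on at least 1 MC3T3 day, set after seeing the data, 95 of 466 entries were higher (20.4%) and 186 lower (39.9%), with a median of -0.45. The most abundant, miR-5099, did not pass (517.3, 603.1 and 1231 RPM in calvaria, 302.3 to 743.8 in MC3T3 cells, log2 0.45 ± 0.42 (SE), adjusted p = 0.368). Of the 2 arms of miR-5117, miR-5117-3p was higher (139.5, 180.9 and 286.6 RPM against 86.3 to 131.1, log2 0.82 ± 0.27, adjusted p = 0.0221). That call was lost without calvaria 3 (adjusted p = 0.0515). miR-5117-5p did not pass (-0.05 ± 0.22, adjusted p = 0.84).

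The 5 other neighbours that were higher are named after their values were seen. miR-6239 had 42.3, 49.9 and 48.4 RPM in calvaria and 1.24 to 4.44 in MC3T3 cells (log2 3.88 ± 0.31, adjusted p = 2.45e-06). miR-5105 had 26.2, 39.5 and 46.9 RPM against 0 to 1.82 (5.60 ± 0.55, adjusted p = 1.12e-05), and miR-5126 had 9.3, 13.8 and 45.4 RPM against 0 to 0.951 (5.73 ± 0.71, adjusted p = 5.32e-05). These are the 2 entries whose direction the count filter fixed, and their calls are given as values only. miR-6238 was higher by 2.41 ± 0.41 (adjusted p = 0.000519). miR-5121, whose mature sequence overlaps a small nucleolar RNA gene, had 44.8, 23.2 and 49.9 RPM in calvaria and 2.48 to 25.4 in MC3T3 cells, which overlap. It was higher by 1.48 ± 0.51 (adjusted p = 0.026), and it lost the call without calvaria 3 (0.0723) and also without calvaria 1 and without day 24. miR-6239 and miR-6238 kept theirs in all 14 alternatives in which they were tested, with adjusted p of at most 0.00259.

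A second set held names listed as overlapping other structural RNA, of which miR-664 and miR-1839, both listed under small nucleolar RNA, were in the table. In the RefSeq positions used above only the miR-664 arms overlapped such a gene, and miR-1839-5p did not. Of its 4 entries 2 were higher and 0 lower in calvaria, with the same counts at an unadjusted p under 0.05 and with DESeq2. Read against the 32.7% of all entries called higher, 2 of 4 is too few entries to set the list apart. miR-1839-5p had 928.1, 972.3 and 970.7 RPM in calvaria and 262.2 to 615.4 in MC3T3 cells (log2 0.81 ± 0.20, adjusted p = 0.00573). miR-1839-3p had 6.76, 11.9 and 18.6 RPM in calvaria and 2.98 to 8.37 in MC3T3 cells, which overlap. It was higher by 1.06 ± 0.34 (adjusted p = 0.0181), a call lost without calvaria 3 (0.0644). miR-664-3p, with 16.4 ± 4.2 and 14.4 ± 5.73 RPM, did not pass (0.07 ± 0.34, adjusted p = 0.863).

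The 5 members together held 3.9%, 4.05% and 3.43% of the counts in calvaria 1, 2 and 3, a mean of 3.79% ± 0.322 (SD, n = 3). On MC3T3 days 0, 6, 10, 17 and 24 they held 0.0204%, 0.0765%, 0.0946%, 0.0785% and 0.0915%. Nearly all of it came from a pair of entries. In calvaria 58.5% of the members' counts were of miR-6243 and 39.9% of miR-5109, and in MC3T3 cells 80.2% and 18.2%. Without miR-6243 the calvaria share was 1.6%, and without miR-5109 it was 2.25%.

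**Figure D5:**
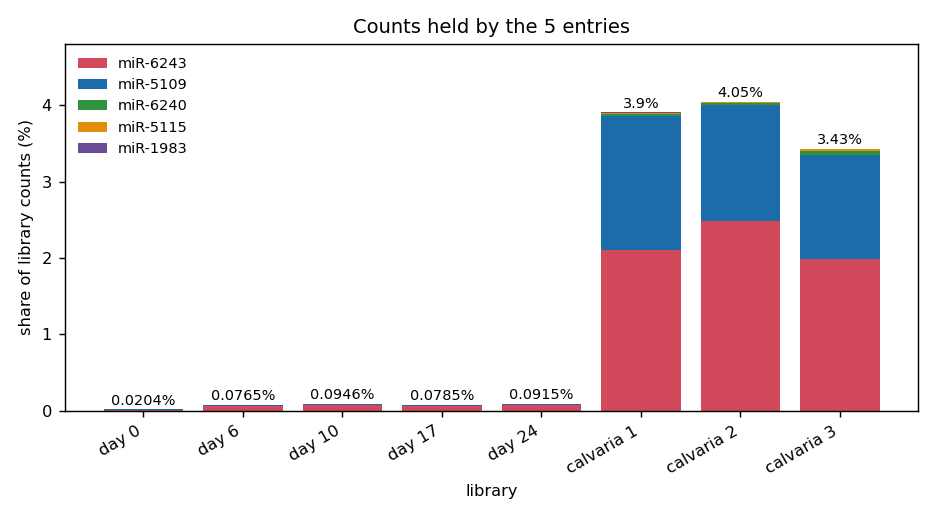
Share of library counts (percent) held by the 5 entries in each library, stacked by entry. Calvaria libraries reach 3.43% to 4.05%, nearly all of it miR-6243 and miR-5109, and MC3T3 libraries at most 0.0946%.

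Leaving the 5 out of the library total raised the RPM of every other entry by 4.06%, 4.22% and 3.55% in calvaria 1, 2 and 3, and by 0.0204% to 0.0947% in MC3T3 cells. let-7i-5p, the most abundant entry in calvaria, went from 81097 ± 8089 to 84315 ± 8669 RPM there and from 64988 to 65038 in MC3T3 cells, so its ratio of calvaria to MC3T3 moved from 1.25 to 1.3. For miR-140-3p, a cartilage microRNA, the ratio moved from 3.88 to 4.04, and for miR-21a-5p from 0.341 to 0.354. Over 270 entries with at least 10 RPM in both materials the ratio rose by 3.62% to 4.08%, a median shift of 0.05 on the log2 scale. The median SD over calvaria of the 395 other entries was 0.25 before and 0.26 after. It became smaller for 167 of them and larger for 228, by at most 0.02. The change in let-7i-5p was thus smaller than the SD of its 3 calvaria libraries.

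The calls of other entries moved little between materials. Of 546 entries other than the members, 175 were higher and 186 lower in calvaria in the edgeR quasi-likelihood test with TMM scaling, and 181 and 182 once the 5 had been left out. Of these calls 357 were the same before and after, 6 higher calls were gained and 4 lower calls lost, and none reversed. The 5 most abundant entries to change were let-7g-5p, miR-26b-5p, miR-25-3p and 1 precursor entry each of miR-181b-5p (mir-181b-2) and miR-128-3p (mir-128-1). All of them became higher calls. The entries of the same 2 names from mir-181b-1 (adjusted p = 0.0596 with the members in) and mir-128-2 (0.485) were called neither before nor after. let-7g-5p went from a log2 difference of 0.40 (adjusted p = 0.0728) to 0.44 (0.0424). With library totals in place of TMM, 174 higher and 137 lower became 181 and 132, with 7 gained and 5 lost. The most abundant of those, miR-99a-5p, lost its lower call (log2 -1.16 with adjusted p = 0.0456, then -1.11 with 0.0532).

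A change of scaling alone moved the split of calls further than leaving out the members did. Over all 551 entries 180 higher and 186 lower calls became 179 and 137 with library totals and 216 and 128 with DESeq2 size factors, both in the edgeR test. The DESeq2 Wald test, which changes the test as well, gave 222 and 109. The median log2 difference of all entries was -0.13 with TMM, 0.01 with library totals and 0.18 with DESeq2 size factors. Leaving out the members shifted the log2 differences of the 546 other entries by a median of 0.04 with TMM and 0.05 with library totals. Leaving out calvaria 1, 2 or 3 gave 122, 117 and 122 lower calls. The TMM factors were computed anew in these fits, and the median log2 difference became -0.03, 0.01 and 0.04. The loss of a library and the change of scaling cannot be told apart there.

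In the MC3T3 day trend, a linear slope over 5 libraries without replicates, 6 entries rose and 8 fell of 469 tested (1.28% and 1.71%) in the edgeR quasi-likelihood test with TMM scaling. miR-1983 was among the 8, and since its counts were known when it was chosen, its call is not read as a test. Leaving the 5 out changed the call of none of the 464 other entries: the 6 rising and 7 falling calls among them were the same. With library totals the calls did change, from 6 rising and 4 falling to 1 and 2. The most abundant of the 7 that lost theirs were miR-99a-5p, both precursor entries of miR-181a-5p, miR-139-5p and miR-146a-5p. All 7 had an adjusted p of 0.0489 with the members in the table. Their adjusted p was 0.0521 to 0.0532 without them, and that of miR-99a-5p was 0.0521. The fitted change of miR-99a-5p was 2.34 before and after. In this trend the members held under 0.1% of the counts, and the calls that changed lay at the threshold. The calls of the day trend also changed when a single library was left out, with 37 rising and 42 falling without day 0. Leaving out day 6 gave 0 and 5 (42 and 54 at an unadjusted p under 0.05), and leaving out day 10 gave 8 and 7. Leaving out day 17 gave 0 and 0 (32 and 35 unadjusted, edgeR), and leaving out day 24 gave 11 and 17.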

How the data were processed

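The raw table holds an estimated count per mature name and precursor, as deposited by the authors, with reads shared between some entries. The other table holds RPM, which the authors scaled from it: recomputed from count and library total, RPM differed by at most 0.0127. The submitters' processing notes name cutadapt 0.9.5, Bowtie 0.12.7 and mm10, without roles. The counting method and miRBase release were not given in the sources used here. Libraries were made with the NEBNext Small RNA kit, per the labels. MC3T3 columns name a day 3 lower than the titles do, for each of the 5; days follow the titles, and the meaning of the mark veh in 4 of them is not stated. All columns were matched.

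Counts were rounded and tested with the edgeR 4.0.16 quasi-likelihood test (R 4.3.3), TMM scaling on full library totals, p-values adjusted by Benjamini-Hochberg across every tested entry, and a threshold of 0.05. Entries needed 10 counts in at least 3 of 8 libraries (calvaria against MC3T3) or in 2 MC3T3 libraries (day trend). Leave-one-out fits tested the same entries, and DESeq2 1.42.0 was an alternative. The fits were tested on simulated data. Log2 values of levels use a pseudocount of 1 RPM. Named entries were the members, the 3 most abundant of each neighbour list, the 2 nearest courses per member and the 5 most abundant entries whose call changed. Of the second list, the names miR-720, miR-1937, miR-805, miR-2145 and miR-689 gave no entry. The members and lists were chosen with earlier results of these data known. Sequences and gene positions are from RefSeq GRCm38.p6 and GENCODE M21.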

Additional observations from a re-analysis of the deposited data

How the results depend on the processing

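The log2 differences of miR-5109 and miR-6243 moved by less than their calvaria SD in all 6 alternatives. Those of the 3 scarce members moved only with a pseudocount of 10 RPM, to 4.56 for miR-6240, 3.77 for miR-5115 and 2.45 for miR-1983. The summed share in calvaria was 2.25% without miR-5109 and 1.6% without miR-6243 and moved by less than its SD in the other 7 alternatives. Higher calls in calvaria were 85 with a minimum of 100 counts. Lower calls were 87 with that minimum, 109 with the DESeq2 Wald test, and 117 to 199 when 1 library was left out. With that minimum 280 entries were tested and 1 neighbour of the members was higher; leaving out 1 library gave 4 to 6, and requiring 10 counts on at least 1 MC3T3 day gave 4. Rising calls in the day trend were 19 with the DESeq2 Wald test, 14 with no count filter, 2 with a minimum of 100 counts, 1 with library totals and the members left out, and 0 to 37 when 1 day was left out. Falling calls were 5 with library totals, 20 with no count filter, 2 with a minimum of 100 counts, 2 with library totals and the members left out, and 0 to 42 when 1 day was left out. In the day trend 855 entries were tested with no count filter and 250 with a minimum of 100 counts, against 469 in the main fit. The cause of these changes was not tested. Settings for the neighbour lists were chosen after seeing the data. No paired analysis was possible because the labels give no replicate numbers and each day has 1 library. Depth limits miR-1983, miR-5115 and miR-6240 in MC3T3 cells, which had 0 to 28 counts per library.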
